A study of Mus musculus with 20 samples.

Results

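The HPRT knockdown line of mouse ESD3 embryonic stem cells was followed through its differentiation by comparing 3 late libraries, from days 10, 12 and 14, with 3 early libraries, from days 1, 2 and 3. These 6 libraries were taken from the 20 of the series, of which 10 belonged to the knockdown line; they were chosen by the differentiation day in their labels, and no control library entered the comparison. The cells came from strain 129s2/SvPas and were kept on mouse embryo fibroblast feeders before spherical neural masses (SNM) were formed and driven toward dopaminergic neurons. Every library of the knockdown line carried a virally delivered short hairpin RNA against HPRT, designed on the human gene per the study's methods, with puromycin selection; the control line, used below only where a difference between lines is named, carried one against luciferase. A single transduced line was studied, the purified RNA of each day was pooled, and each day gave 1 library. The spread reported here is thus the spread between days of one line and not between independent cultures. The groups therefore differ in differentiation time and share genotype, strain and selection. RNA was measured by RNA-Seq in bulk, in which fewer cells of a type and less RNA per cell cannot be told apart.

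HPRT returns hypoxanthine and guanine to the purine nucleotide pool, and its loss in humans causes Lesch-Nyhan disease, a disorder of the basal ganglia. In neural differentiation of stem cells, dividing progenitors marked by nestin and Sox transcription factors leave the cell cycle and give rise to neurons first and to astrocytes and oligodendrocytes later. Oligodendrocytes arise from precursors that carry the PDGF receptor alpha, are specified by Olig2, Nkx2-2 and Sox10, and wrap axons in myelin built from a small set of abundant proteins and galactolipids.

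Levels are given on the log2 scale relative to the gene's own mean over days 1, 2 and 3, so that 1 unit is a doubling, and a difference is the late mean minus the early mean. Of 18152 genes above the floor (no more than 1 normalised read) in a knockdown table, 13271 passed a minimum on the typical log2 normalised count of 4 and were tested with limma. All but 1 of the 9 loops of tables that check the joining of days closed for 91.5% to 93.1% of these genes; the loop of days 3 and 4 closed for 0.0226%, where the table of the control line was the one at odds with its neighbours (the knockdown table matched them for 19 of 20 low genes, the control table for 1 of 17). The step from day 3 to day 4, which every late against early difference contains, therefore rests on 1 knockdown table. The depth of each library is not given in the sources used here, and none of them ties a library to a sequencing lane.

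Hprt itself (chromosome X) was checked first. Its level in the knockdown line stood at 1.15, -0.48 and -0.67 on days 1, 2 and 3 and at -0.70, -1.09 and -1.61 on days 10, 12 and 14. The late values lay below the early ones, by a narrow margin between days 3 and 10, and the difference of -1.13 ± 0.52 (SE) did not pass the test (adjusted p = 0.17, limma). Against the control library of the same day, Hprt was lower in the knockdown line on all 6 days, by log2 ratios between -2.70 on day 1 and -5.00 on day 14.

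The early libraries were not alike. Days 1, 2 and 3 differed from each other by a median absolute log2 difference of 0.228 to 0.332 over genes, the late days by 0.244 to 0.266, and early from late days by 0.343 (days 3 and 10) to 0.532 (days 2 and 14). The day 3 library was the early one nearest to each late library, with 1652 genes at least 2-fold apart from day 10 against 2349 for day 1 and 2480 for day 2. Its Hprt level was far below that of the control library of the day (log2 ratio -4.56). It also held oligodendrocyte and myelin transcripts that were low on days 1, 2 and 4, as given below. Whether the day in its label is right was not tested, and the label was kept. Many results in which day 3 stood far from days 1 and 2 are given with and without it, and others only with it.

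Between early and late days, 1743 of 13271 genes (13.1%) passed an adjusted p of 0.05 in limma, 977 of them higher late (7.36%) and 766 lower late (5.77%). The change was at least 2-fold for 646 of the genes called higher and for 402 of those called lower. Late and early days did not overlap for 2585 genes that stood higher late (19.5%) and 2978 that stood lower (22.4%), and the median difference over all genes tested was -0.05. Centring each library on its median gene moved that median to 0.01 and the split of calls from 56.1% to 65.9% higher (1193 higher and 617 lower). The number of calls rested on single days. It was 1786 without day 3, 522 without day 1, 720 without day 10, and 13, 4 and 7 without days 2, 12 and 14 in turn. All 1743 differences kept their sign in each of the last 3 fits. The genes had been called on these same libraries, so the kept signs are no independent support. Between 3225 and 3948 genes still had an unadjusted p under 0.05 (limma) in those fits. Without day 2, 12 or 14, limma called no gene of any of the 34 gene lists.

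**Figure D1:**
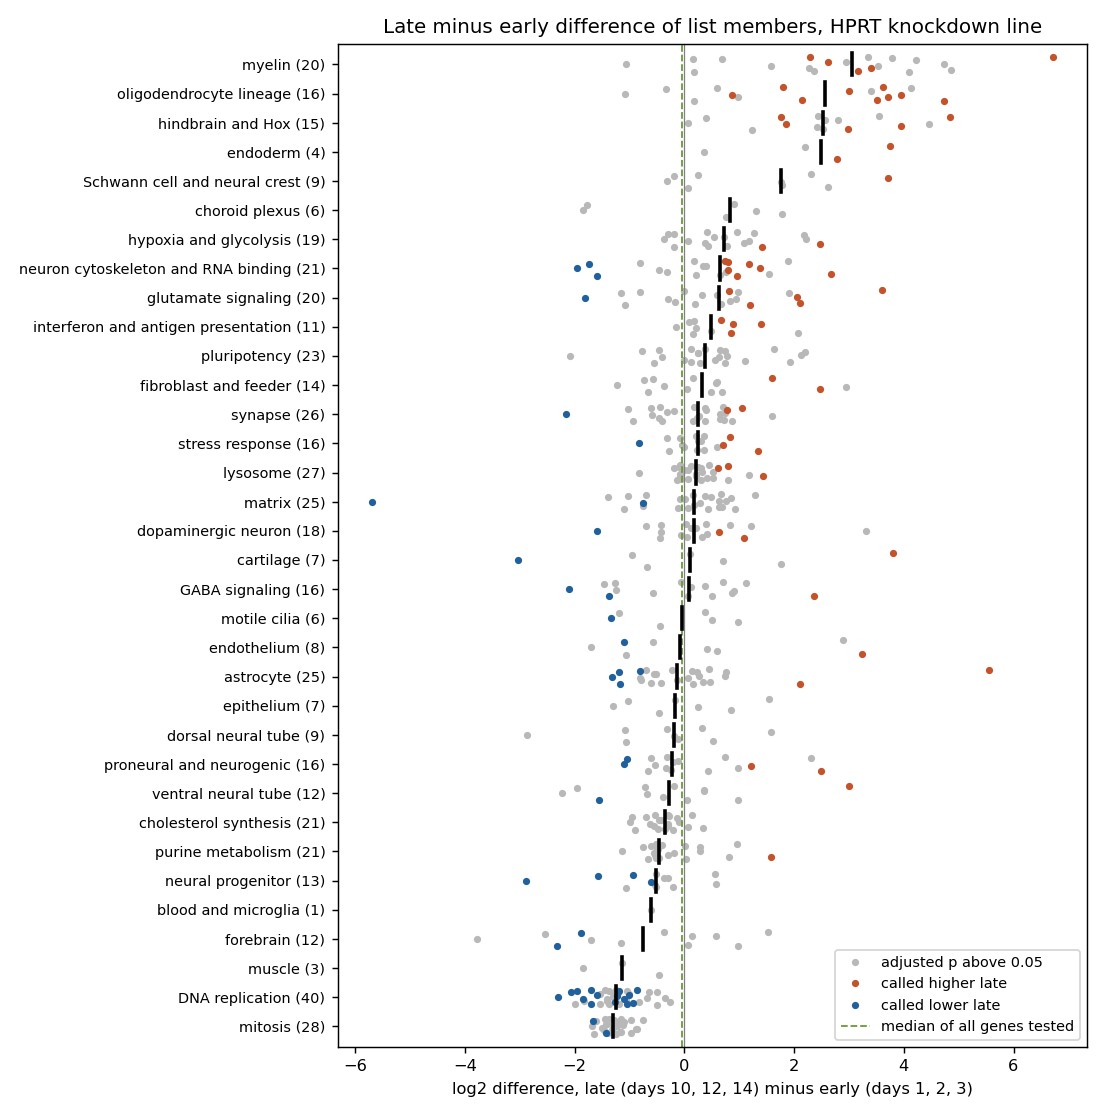
Each point is a gene of a list, placed on the horizontal axis at its log2 difference between late (days 10, 12, 14) and early days (days 1, 2, 3) of the HPRT knockdown line; orange and blue points passed an adjusted p of 0.05 in limma, the number of genes tested stands beside each list, black bars are list medians, and the dashed line is the median of all genes. Myelin, oligodendrocyte lineage and Hox lists have medians between 2.53 and 3.06, and DNA replication and mitosis lie wholly below 0.

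Transcription factors and receptors of the oligodendrocyte lineage rose in part, and the founding factors Olig1 and Olig2 were not among those that did. Of 16 genes of the lineage list, all of which were tested, 9 were called higher late and 0 lower, against 7.36% and 5.77% of all genes, and the list's median difference was 2.57 against -0.05. Sox10 (chr15:78985343-78994920, minus strand, NCBIM37), the factor that switches on myelin genes, stood at -0.49, -1.47 and 1.96 on days 1, 2 and 3 and at 3.83, 3.50 and 3.80 on days 10, 12 and 14. All late values lay above the early ones, and day 3 was the highest early day by more than 2 log2 units. The late mean was 13.1 times the early one (3.71 ± 0.82, SE, adjusted p = 0.0372, limma). Nkx2-2, which with Olig2 specifies the lineage in the ventral neural tube, rose by 3.00 (adjusted p = 0.0248), from -0.60, -0.53 and 1.12 to 3.33, 2.98 and 2.68. Myrf, listed under its older symbol Gm98 and needed for the mature myelin program, rose by 3.50 (adjusted p = 0.0452). Sox8, a relative of Sox10, rose by 0.87 (adjusted p = 0.0265), with 3 early values between -0.10 and 0.06 and no excess on day 3.

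Pdgfra, the growth factor receptor of oligodendrocyte precursors, went from -0.09, -0.60 and 0.69 to 1.79, 1.82 and 1.80, a rise of 1.80 ± 0.32 (adjusted p = 0.0276). Its late values were within 0.03 of each other. Bcas1, found in newly forming oligodendrocytes, rose by 3.94 (adjusted p = 0.0291), and the matrix glycoprotein gene Tnr by 3.61 (adjusted p = 0.0291). Lhfpl3, an oligodendrocyte precursor transcript, rose by 2.14 (adjusted p = 0.0182). Enpp6, a choline phosphodiesterase of newly forming oligodendrocytes, rose by 4.72 (adjusted p = 0.0395, limma). The tables around it disagreed by up to 0.673 log2 units, and those around Tnr by 0.227. Bcas1 and Enpp6 had a high day 3, at 1.83 and 2.67, and differed by 4.85 and 6.06 without it.

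The factors that found the lineage did not follow this pattern. Olig2 stood at 0.25, 0.07 and -0.32 early and at 0.40, 0.19 and -0.06 late, so that the groups overlapped (0.18 ± 0.21, adjusted p = 0.572). Olig1 lay lower on all late days, at -0.66, -1.05 and -1.52 against 0.38, 0.07 and -0.45, without passing the test (-1.08, adjusted p = 0.0607). Both stood 1.86 or more below the early mean on day 0. Gpr17, a receptor of committed precursors, and Zfp488, a cofactor of Olig2, stood 3.40 and 4.12 higher late at adjusted p of 0.0535 and 0.0562, with day 3 at 2.11 and 2.72; without day 3 they differed by 4.46 and 5.48 (adjusted p = 0.00477 and 0.00308, limma).

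Myelin genes showed larger differences and fewer calls. Of 22 genes of the myelin list 20 passed the minimum, and the median difference was 3.06. Of these, 5 were called higher (25.0%, against 7.36% of all genes) and 0 lower. On every late day 13 lay higher than on any early day (65.0%, against 19.5% of all genes). Opalin, a membrane glycoprotein of myelin (chr19:41136964-41151603, minus strand, NCBIM37), stood at -0.91, -2.23 and 3.14 early and at 6.53, 6.11 and 7.54 late. It was 106-fold higher late (6.73 ± 1.32, adjusted p = 0.0309; its tables disagreed by 0.151). Cnp, a phosphodiesterase of the myelin cytoplasm, rose by 2.28, the proteolipid gene Pllp by 2.63, the lysophospholipase Enpp2 by 3.41 and the gap junction gene Gjc3 by 3.17, with adjusted p between 0.0243 and 0.0459.

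Structural genes of the sheath missed the threshold, with early days far apart. Mbp, myelin basic protein, stood at -1.23, -1.57 and 2.80 on days 1, 2 and 3 and at 4.35, 3.85 and 4.47 on days 10, 12 and 14 (4.22 ± 1.13, adjusted p = 0.0559). Mag, the adhesion protein of the inner myelin sheath, stood at -1.72, -1.58 and 3.31 and then at 5.06, 4.22 and 5.28 (4.85 ± 1.34, adjusted p = 0.0594). In both genes the late days lay above day 3, and day 3 lay more than 3 log2 units above days 1 and 2. The tight junction gene Cldn11 (4.73) and the enzymes of myelin galactolipids, Fa2h (4.09), Gal3st1 (3.54) and Ugt8a (2.95), had adjusted p between 0.0519 and 0.0816. Aspa, which releases acetate for lipid synthesis, lay lower late (-1.06, adjusted p = 0.0931), and Gpr37 stood at 0.17 (adjusted p = 0.808).

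Without the day 3 library, 15 of 20 myelin genes were called higher late in place of 5, and 11 of 16 lineage genes in place of 9, with 1 called lower. Leaving out any other day went the other way: 0 myelin genes were called without day 1, 2, 10, 12 or 14, and 1 lineage gene without day 1 or day 10 and 0 without day 2, 12 or 14, while the medians of both lists stayed between 2.32 and 3.32. Without day 3, Mbp differed by 5.62 ± 0.25 (adjusted p = 0.0016, limma), Mag by 6.51 ± 0.34 (adjusted p = 0.0031), Opalin by 8.30 (adjusted p = 0.0036) and Sox10 by 4.69 (adjusted p = 0.0037). Cldn11 (6.26), Fa2h (5.39), Gal3st1 (4.74) and Ugt8a (4.10) then had adjusted p between 0.00133 and 0.00494. Day 3 was set apart in part because these same transcripts were high in it. Leaving out their highest early day necessarily enlarges their differences, so the adjusted p without day 3 are no separate support. The same holds for the other genes given without day 3 whose day 3 lay nearest their late level. The size of these differences thus depended on whether day 3 counted as early, and their direction did not. Along the course, the median of the myelin list was -0.79, -1.13 and 1.91 on the 3 early days, was -1.13 at day 4, reached 0.67 and 0.85 at days 6 and 8, and was 3.33, 2.24 and 3.47 on the 3 late days. The excess on day 3 was thus gone on day 4, and the level passed that of day 3 again between days 8 and 10.

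**Figure D2:**
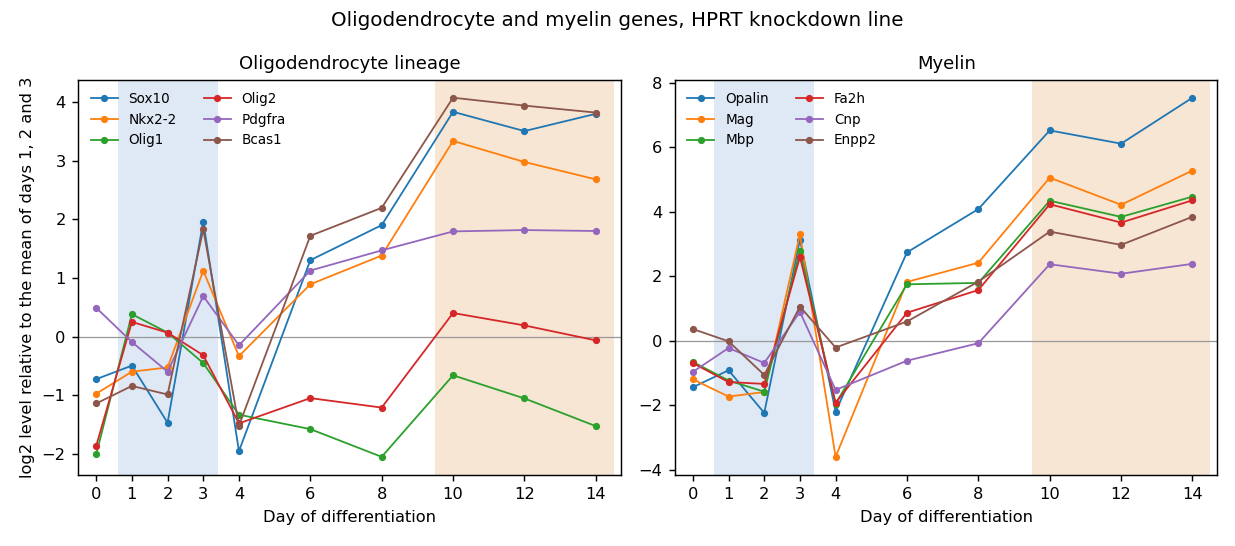
Log2 level of 6 oligodendrocyte lineage genes (left) and 6 myelin genes (right) on the 10 days of the HPRT knockdown line, relative to each gene's mean of days 1, 2 and 3; blue and orange bands mark the early and late days, and each point is 1 library. Sox10, Mbp, Mag and Opalin peak on day 3, are low again on day 4 and climb from day 6, while Olig1 and Olig2 stay at or below 0.40 throughout.

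Of 25 astrocyte genes, all tested, 2 rose (8.00%, against 7.36% of all genes) and 4 fell (16.0%, against 5.77%), and their median difference was -0.14. With each library centred on its median gene, 2 were called higher and 2 lower, and without day 1 or day 10 none was called. Gpr37l1, a glial receptor (chr1:137056811-137064258, minus strand, NCBIM37), had the highest called difference among genes with agreeing tables: it stood at -2.04, -0.78 and 2.81 early and at 5.26, 5.07 and 6.33 late (5.55 ± 1.20, adjusted p = 0.0355). S100b, a calcium-binding protein of astrocytes that oligodendrocyte precursors also make, rose by 2.11 (adjusted p = 0.0417). Both shared the high day 3 of the myelin genes and differed by 6.96 and 2.65 without it (adjusted p = 0.00464 and 0.0106). Genes that fell were the gap junction protein Gja1 (-1.32, adjusted p = 0.0269), the gliogenic factor Sox9 (-1.19, adjusted p = 0.0284), the lipid enzyme Acsbg1 (-1.17, adjusted p = 0.0464) and the bicarbonate transporter Slc4a4 (-0.81, adjusted p = 0.0499). Sox9 stood at 0.20, 0.19 and -0.39 early and at -1.37, -1.24 and -0.97 late. Gfap, the astrocyte filament protein, stood at 0.07 (adjusted p = 0.873) and the water channel gene Aqp4 at 0.13 (adjusted p = 0.786); both stood near -2 on days 6 and 8 and near the early level late.

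Of the neural progenitor genes, nestin was the most reduced. Of 13 tested genes 4 were called lower (30.8%, against 5.77% of all genes) and 0 higher (against 7.36%), and 11 differences were below 0. Nes, the intermediate filament nestin (chr3:87775000-87784373, plus strand, NCBIM37), stood at 0.20, 0.09 and -0.30 on the early days and at -2.26, -2.93 and -3.47 on the late days, 13.5% of the early mean (-2.89 ± 0.32, adjusted p = 0.0185). The groups were over 1.9 log2 units apart. Sox3 fell to 33.7% (adjusted p = 0.049), the filament gene Vim to 52.1% (adjusted p = 0.0262) and the receptor gene Notch1 to 65.4% (adjusted p = 0.0474) of their early means. The proneural list went both ways: of 16 tested genes 2 were called lower and 2 higher (12.5% each, against 5.77% and 7.36% of all genes). The Notch ligand gene Dll1 fell by 1.10 (adjusted p = 0.038) and Hes6 by 1.05 (adjusted p = 0.035). St18 rose by 2.48 (adjusted p = 0.0427, limma) and Sox4 by 1.22 (adjusted p = 0.0196). In the progenitor list Sox2, a progenitor and glial precursor factor, stood higher late without passing the test. It was at 0.73, 0.63 and 0.32 late against -0.05, 0.00 and 0.05 early (0.56, adjusted p = 0.0608). Pax6 stood at -0.21 (adjusted p = 0.58). With each library centred on its median gene, Nes and Vim stayed called lower and Sox2 passed the test as higher.

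Genes of DNA synthesis were lower late. Of 41 listed replication genes 40 were tested: 15 were called lower late against 5.77% of all genes, 32 lay lower on every late day than on any early day against 22.4% of all genes, and all 40 differences were below 0 with a median of -1.24. Rrm2 (chr12:25393106-25399011, plus strand, NCBIM37), the ribonucleotide reductase subunit that limits the supply of deoxynucleotides, stood at -0.29, 0.33 and -0.04 early and at -1.26, -2.62 and -3.05 late. It was at 20.2% of its early mean (-2.31 ± 0.47, adjusted p = 0.0316). Tk1, thymidine kinase, fell to 23.7% (adjusted p = 0.0317), the polymerase gene Pole to 25.7% (adjusted p = 0.0309), the origin-licensing gene Cdc6 to 27.8% (adjusted p = 0.0309) and the helicase subunit gene Gins2 to 30.7% (adjusted p = 0.0294). Mcm2, of the replicative helicase, stood at -1.53 with an adjusted p of 0.0685.

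Mitosis genes had a median as low, -1.29 over 28 tested genes with all 28 below 0, but their calls were near the background: 2 were called lower (7.14%, against 5.77% of all genes) and 5 lay lower without overlap (17.9%, against 22.4% of all genes). Plk1 (chr7:129302951-129313389, plus strand, NCBIM37), the kinase that drives mitotic entry and exit, stood at -0.54, 0.41 and 0.13 early and at -0.91, -1.88 and -2.22 late (-1.67 ± 0.40, adjusted p = 0.0439). Kif20a, a kinesin of the spindle midzone, fell by 1.43 (adjusted p = 0.0463). Mki67, the proliferation antigen, stood at -0.50, 0.34 and 0.16 early and at -0.47, -2.08 and -2.27 late, so that day 10 overlapped with day 1 (-1.61, adjusted p = 0.0787). The list medians were graded in the same way; that of mitosis peaked at 0.86 (day 6), passed -0.14 (day 8) and ended at -0.50, -1.64 and -1.79 over the late days. Leaving out day 3 reduced the calls to 4 replication genes and 0 mitosis genes, and leaving out day 10 changed them to 13 and 12, with medians of -1.46 and -1.74. No gene of either list was called without day 2, day 12 or day 14, with list medians between -1.24 and -1.02.

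**Figure D3:**
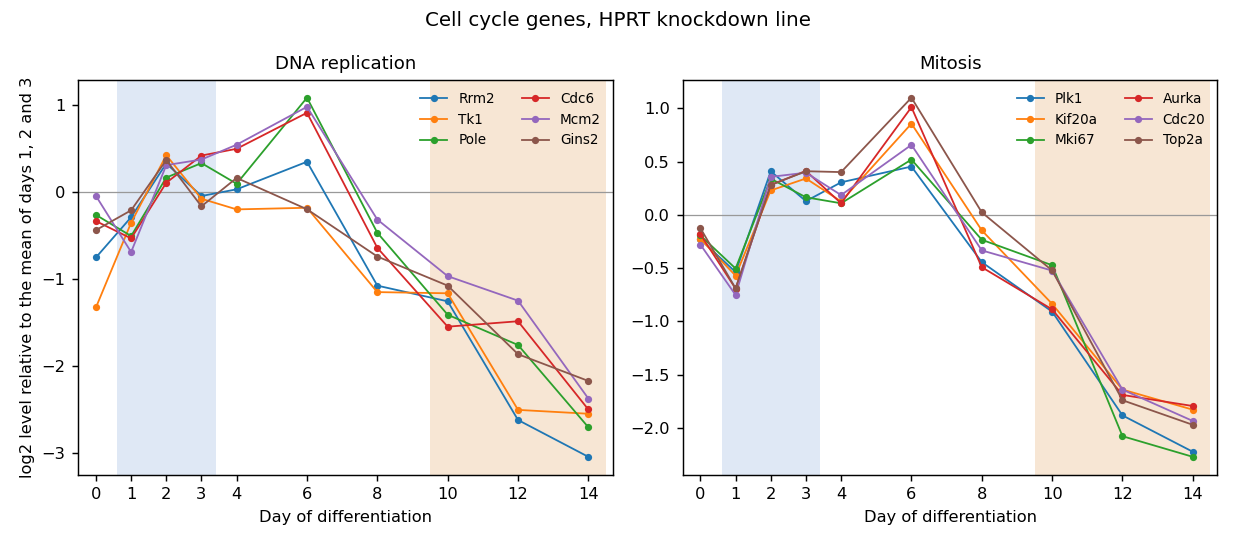
Log2 level of 6 DNA replication genes (left) and 6 mitosis genes (right) on the 10 days of the HPRT knockdown line, relative to each gene's mean of days 1, 2 and 3; blue and orange bands mark the early and late days, and each point is 1 library. Day 10 of Plk1 lies between the early days and days 12 and 14, and most of the genes are highest on day 6.

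Because the replication and mitosis genes were lower together, the bases before the start of the gene with the largest called fall in each list are shown, 250 bases upstream of the start of Rrm2 (chr12:24708004-24708253, plus strand) and of Plk1 (chr7:122159185-122159434, plus strand), from RefSeq on GRCm38.p6, a later build than the NCBIM37 coordinates used for genes. Capitals mark a CCAAT box, a promoter motif common in cell cycle genes.
Rrm2: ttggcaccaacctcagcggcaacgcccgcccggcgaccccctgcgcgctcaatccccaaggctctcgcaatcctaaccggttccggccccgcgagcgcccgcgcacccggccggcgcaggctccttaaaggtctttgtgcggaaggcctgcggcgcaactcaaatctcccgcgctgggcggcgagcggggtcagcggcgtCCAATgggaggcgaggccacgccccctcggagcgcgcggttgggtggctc
Plk1: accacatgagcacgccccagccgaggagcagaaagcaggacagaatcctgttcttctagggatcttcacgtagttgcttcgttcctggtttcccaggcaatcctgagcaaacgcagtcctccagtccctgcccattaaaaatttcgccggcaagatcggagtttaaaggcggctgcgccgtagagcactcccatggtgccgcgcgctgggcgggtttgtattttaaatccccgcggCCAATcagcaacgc
The box began 50 bases before the start in Rrm2 and 14 in Plk1. The CCAAT box, the E2F core TTCCCGC, a second E2F core with the letters TTGGCGC and the cell cycle homology region, TTTGAA, were searched on both strands of such windows; the reverse strand of the CCAAT box and the second E2F core share the letters TTGG, so a window can count for both. The CCAAT box occurred in 79.2% of 24 mitosis promoters and 59.4% of 32 replication promoters, in 36.5% of the 10377 tested genes with a window and in 34.5% of all 27025 promoters. One or both E2F cores occurred in 10 of 32 replication and 3 of 24 mitosis promoters, and in 10.4% of tested genes. The homology region was held by 33.3% of mitosis and 12.5% of replication promoters against 9.96% of tested genes. Over all 618 genes called lower late with a window, the CCAAT box stood in 36.4%, close to the share of all tested genes. A match of letters is not evidence of binding.

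Neuronal genes went both ways. Of 21 tested genes of the cytoskeleton and RNA-binding list, 7 were called higher and 3 lower, with a median of 0.65 (33.3% higher and 14.3% lower, against 7.36% and 5.77% of all genes). Dcx, the microtubule protein of migrating young neurons, stood at 0.18, -1.05 and 0.86 early and at 2.52, 3.12 and 2.39 late (2.68 ± 0.49, adjusted p = 0.0289). It had been as high on day 0 (3.08) and day 4 (2.69). Mapt, the axonal protein tau, rose by 1.38 (adjusted p = 0.0196), and the neuronal RNA-binding genes Elavl3 and Elavl4 by 1.18 and 0.80 (adjusted p = 0.0234 and 0.0339). The growth cone genes Gap43 (0.96) and Dpysl3 (0.79), and Tagln3 (0.73), also rose, with adjusted p between 0.0274 and 0.0309.

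The genes of the light, medium and heavy neurofilament subunits, which give axons their calibre, fell, while Ina, a further subunit of the same filaments in this list, stood at 0.10, -0.44 and 0.34 early and at 1.01, 1.35 and -0.08 late (0.76, adjusted p = 0.225). The subunits were grouped after their values were seen. Nefl stood at 0.03, 0.07 and -0.10 early and at -1.39, -1.64 and -2.19 late (-1.74 ± 0.23, adjusted p = 0.0196), Nefm fell by 1.60 (adjusted p = 0.0395) and Nefh by 1.95 (adjusted p = 0.0317). Nefl and Nefm had peaked on day 4 at 1.65 and 1.43. The neuronal tubulin Tubb3 stood at 0.33, -0.23 and -0.10 early and at 0.29, -0.35 and -0.89 late, with overlapping groups (-0.31, adjusted p = 0.517), after 1.95 on day 0 and 1.98 on day 4.

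**Figure D4:**
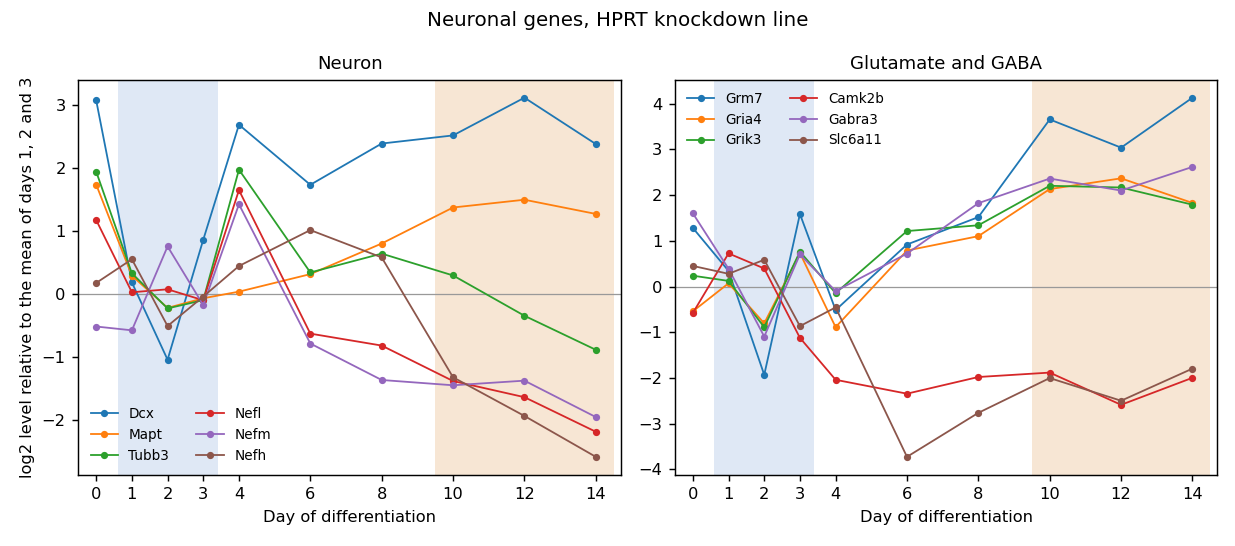
Log2 level of 6 neuronal cytoskeleton genes (left) and 6 genes of glutamate, synapse and GABA function (right) on the 10 days of the HPRT knockdown line, relative to each gene's mean of days 1, 2 and 3; blue and orange bands mark the early and late days, and each point is 1 library. Dcx and Mapt end above their early values and Nefl, Nefm and Nefh below them. Glutamate receptor genes climb from day 6, while Camk2b lies low from day 4 on and Slc6a11 from day 6 on.

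Synapse genes were called at about the background: of 26 tested 2 rose (7.69%, against 7.36% of all genes), among them the adhesion gene Nlgn1 (0.77), and 1 fell (3.85%, against 5.77%). That gene was Camk2b, a subunit of the synaptic calcium-calmodulin kinase (-2.15 ± 0.50, adjusted p = 0.0401). Camk2b stood at 0.73, 0.40 and -1.12 early and at -1.88, -2.59 and -1.99 late, so that day 3 had already moved; without day 3 the difference was -2.71 (adjusted p = 0.00718). The vesicle protein genes Syt1 (0.37, adjusted p = 0.608) and Snap25 (-0.61, adjusted p = 0.507) overlapped between groups.

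Of 20 tested genes of glutamate signaling 5 were called higher (25.0%, against 7.36% of all genes) and 1 lower (5.00%, against 5.77%). Grm7, a presynaptic metabotropic receptor, stood at 0.34, -1.93 and 1.59 early and at 3.65, 3.04 and 4.13 late (3.61 ± 0.86, adjusted p = 0.0433; without day 3, 4.40, adjusted p = 0.0218). The AMPA receptor genes Gria4 (2.11) and Gria2 (0.81) and the kainate receptor genes Grik3 (2.05) and Grik4 (1.19) rose with adjusted p between 0.0224 and 0.0427, and Grm4 fell by 1.81 (adjusted p = 0.025; its tables were apart by 0.11). Among 16 GABA genes, the receptor subunit Gabra3 rose by 2.36 (adjusted p = 0.0314), while the GABA transporter gene Slc6a11 fell by 2.10 (adjusted p = 0.0305) and the receptor gene Gabbr2 by 1.38 (adjusted p = 0.049). Gad1 and Gad2, which make GABA, stood at 0.86 and -0.57 with adjusted p of 0.486 and 0.52.

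Dopaminergic neurons were the target of the protocol. Of 18 tested genes of their list, 2 were called higher (11.1%, against 7.36% of all genes) and 1 lower (5.56%, against 5.77%). The median difference of the list was 0.17. Th, tyrosine hydroxylase, the rate-limiting enzyme of dopamine synthesis, stood at 1.49, 0.02 and -1.51 early and at 0.13, -0.46 and 0.96 late. The groups overlapped (0.21 ± 0.77, adjusted p = 0.866), and the highest day of the course was day 8 at 2.58. Nr4a2, a factor that dopaminergic neurons need, stood at 0.04 (adjusted p = 0.877) and Foxa2, of the floor plate, at 0.06 (adjusted p = 0.956). The dopamine receptor gene Drd1a rose by 1.09 (adjusted p = 0.0359) and the vesicular monoamine transporter gene Slc18a2 by 0.64 (adjusted p = 0.0423), both having been higher still on day 4. Calb1, the calcium-binding protein calbindin, fell by 1.60 (adjusted p = 0.0314). Ddc, the next enzyme of dopamine synthesis, stood 3.31 higher late with an early spread from -3.13 to 2.10 (adjusted p = 0.136). Slc6a3, the dopamine transporter, was too low to be tested; with no minimum on the count it differed by 1.10 (adjusted p = 0.327).

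Genes of position along the neural tube were read next, from the hindbrain to the forebrain. All 15 tested genes of the hindbrain and Hox list stood higher late, with a median difference of 2.53. Of these, 5 were called higher (33.3%, against 7.36% of all genes) and 0 lower. The groups did not overlap for 13 (86.7%, against 19.5% of all genes). A further 9 genes of the list were below the minimum. The counts and the median include Hoxb8 and Hoxb5, whose limits follow. Hoxb8 (chr11:96143219-96146639, plus strand, NCBIM37) was at the floor on days 1 and 2, and stood at 1.02 on day 3 and at 3.90, 5.10 and 5.50 late. It had been as high on day 0 (3.91) as on day 10, and stood at 2.39 on day 4 and 5.43 on day 8. Hoxb5 was likewise at the floor on days 1 and 2 and at 3.84, 3.87 and 4.12 late, with 2.81 on day 0 and 4.43 on day 8. Days 1 and 2 were thus the lowest days of both genes. Neither can have reached the minimum on the count through those 2 days, so their calls, 2 of the 5, followed in part from that minimum; no difference is given for them, and the tables around them disagreed by 0.264 and 0.172. Hoxb4 rose by 2.99 (adjusted p = 0.0342) and Hoxa5 by 1.85 (adjusted p = 0.0372). The number called was 10 without day 3, 3 without day 1, 2 without day 10 and 0 without day 2, 12 or 14, and at a minimum log2 count of 8 none of these genes could be tested.

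The forebrain list had 2 of 12 tested genes lower and 0 higher (16.7%, against 5.77% of all genes), with 5 differences above 0, 7 below and a median of -0.76. Otx1 and Otx2, head factors of forebrain and midbrain, fell by 2.33 (adjusted p = 0.0289) and 1.89 (adjusted p = 0.0309), and no late value of Otx2, at -1.73, -2.13 and -1.80, came within 1 log2 unit of the early ones, at -0.23, 0.83 and -0.59. Dlx5 (0.98), Dlx6 (1.52) and Emx2 (0.57) of the same list stood higher late, with adjusted p between 0.0609 and 0.192. Of the ventral list, Nkx2-2 rose, as above, and Dbx2 fell by 1.55 (adjusted p = 0.048).

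The 10 highest and 10 lowest called genes whose tables agreed within 0.1 and whose groups did not overlap were taken by rule. Among the highest after Gpr37l1, Sidt1 (chr16:44240293-44333309, minus strand, NCBIM37), which encodes a transmembrane protein tied to RNA uptake, stood at 0.25, -0.07 and -0.18 early and at 5.30, 4.64 and 5.71 late (5.22 ± 0.29, adjusted p = 0.00454). Day 0 was at 3.58 and day 4 at 3.49, so that days 1, 2 and 3 were the low stretch of its course. Fxyd7, a regulator of the sodium pump, rose by 4.68 (adjusted p = 0.025), Faim2, a neuronal inhibitor of Fas-driven cell death, by 4.57 (adjusted p = 0.025), and the plexin gene Plxnb3 by 3.85 (adjusted p = 0.0437). Complement gene C4b stood at -0.31, -0.22 and 0.54 early and at 3.01, 3.82 and 4.68 late (3.84 ± 0.45, adjusted p = 0.0187). Serpina3m, a protease inhibitor, rose by 3.80 (adjusted p = 0.0199), the adhesion gene Opcml by 3.80 (adjusted p = 0.0268) and the collagen gene Col9a1 by 3.79 (adjusted p = 0.0344). Bcas1 made the tenth. Fxyd7, Plxnb3 and Opcml had a high day 3, at 1.85, 2.24 and 1.57. Without day 3 they differed by 5.60, 4.97 and 4.58. Day 3 was also the highest early day of Serpina3m (1.21) and Col9a1 (1.29).

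Hapln1, the link protein that ties hyaluronan to proteoglycans in matrix and perineuronal nets (chr13:89680241-89751437, plus strand, NCBIM37), fell the most. It stood at -0.29, 0.47 and -0.18 early and at -3.95, -6.88 and -6.24 late, 1.94% of its early mean (-5.69 ± 0.74, adjusted p = 0.0196). The drop fell between day 4 (0.66) and days 6 and 8 (-4.24 and -4.12). Nptx1 and Nptx2, neuronal pentraxins that cluster glutamate receptors, fell by 3.10 and 3.41 (adjusted p = 0.0302 and 0.0196), and the peptide hormone gene Apln by 3.44 (adjusted p = 0.0314). Col2a1, the collagen of cartilage and notochord, fell by 3.03 (adjusted p = 0.0277). The spectrin gene Spna1 (-3.54), the protease inhibitor Cst6 (-3.32), Sytl1 (-3.20), the endothelial surface gene Cd93 (-3.18) and the exchange factor Dock8 (-2.99) had adjusted p between 0.0291 and 0.0437.

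Other groups moved little or in part, and their calls are to be read against 7.36% of all genes higher and 5.77% lower. Of 27 lysosome genes 3 rose (11.1%) and 0 fell, among them the protease gene Lgmn (1.43, adjusted p = 0.0235). Of 11 genes of interferon response and antigen presentation 4 rose (36.4%) and 0 fell: H2-D1, a class I molecule (1.39, adjusted p = 0.0196), H2-K1 (0.86, adjusted p = 0.0309), the immunoproteasome gene Psmb8 (0.88, adjusted p = 0.049) and B2m. H2-D1 stood at -0.01 on day 6 and at 1.36 on day 8. Hypoxia and glycolysis genes had 2 of 19 higher (10.5%), Ndrg1 (2.47, adjusted p = 0.033) and Pfkl (1.42, adjusted p = 0.0444). Their median difference was 0.71 with 15 above 0, and 6 lay higher without overlap (31.6%, against 19.5% of all genes). The list's median level was 1.33, 0.00 and 0.76 on days 10, 12 and 14. Among purine metabolism genes, the pathway that HPRT feeds, 1 of 21 was called (4.76%), the AMP deaminase Ampd3 (1.57, adjusted p = 0.037, with tables apart by 0.637), and the median was -0.46 with 14 differences below 0. Of 21 cholesterol synthesis genes none was called and 18 stood below 0 (median -0.35). The groups did not overlap for 2 of them, which lay lower late (9.52%, against 22.4% of all genes). The immediate early gene Fos rose by 1.35 (adjusted p = 0.0309), 1 of 3 stress response genes called higher of 16 (18.8%), with 1 lower (6.25%). In the matrix list Hapln1 and Hspg2 were called lower and no gene higher of 25 (8.00% lower).

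Markers of other cell types were read beside these lists. Their calls are to be read against 7.36% of all genes higher and 5.77% lower. Groups without overlap are to be read against 19.5% higher and 22.4% lower. Of 14 blood and microglia markers, 7 were at the floor in every knockdown table, Sfpi1 (Spi1) was at the floor on all 6 days, and only Cd68 could be tested (-0.61, adjusted p = 0.465). Fibroblast and feeder markers had a median of 0.32. Of 14, 2 were called higher (14.3%), Dcn (2.47, adjusted p = 0.0309, limma) and Postn (1.60, adjusted p = 0.0487). On every late day 3 lay higher than on any early day and 3 lay lower (21.4% each). The list's median was -0.07, -0.11 and 0.76 on days 10, 12 and 14 and 0.25, -0.13 and -0.10 on days 1, 2 and 3, so that only day 14 stood above every early day. Endothelial markers went both ways, Cdh5 up by 3.23 (adjusted p = 0.0199) and Kdr down by 1.11 (adjusted p = 0.0395). Of 12 endoderm markers 4 were tested and 2 were called higher (50.0% of those tested), Trf (3.76, adjusted p = 0.0397, limma) and Gata4 (2.79, adjusted p = 0.042). Trf encodes transferrin, which oligodendrocytes also make, and shared their pattern, with 1.90 on day 3 and -2.90 on day 4; without day 3 it differed by 4.71 (adjusted p = 0.00845). Afp, the fetal liver protein, was at the floor on days 1, 2 and 3. Of 9 neural crest and Schwann cell markers, 1 was called higher (11.1%), Sox10, which is also in the oligodendrocyte list. The groups did not overlap for 5 of the 9, which stood higher late (55.6%). Choroid plexus, epithelial and muscle markers had no call (6, 7 and 3 tested). Motile cilia had 1 lower of 6 (16.7%), and cartilage 1 higher and 1 lower of 7 (14.3% each). The part of such cells in the results above was not tested.

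Pluripotency genes varied more between days than between groups. None of 23 tested genes was called, and none separated the groups. Pou5f1, which encodes Oct4, stood at -2.52, -0.37 and 2.89 on days 1, 2 and 3 and at -1.63, 1.60 and 0.37 on days 10, 12 and 14 (0.11 ± 1.45, adjusted p = 0.965), with its highest level, 4.69, on day 6. Nanog followed the same course, from -2.65 (day 1) to 4.26 (day 6) and 0.23 (day 14). The list's median difference of 0.38 turned to -0.77 without day 1 and to -0.19 without day 12 and was 1.70 without day 3, so that no direction can be given.

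**Figure D5:**
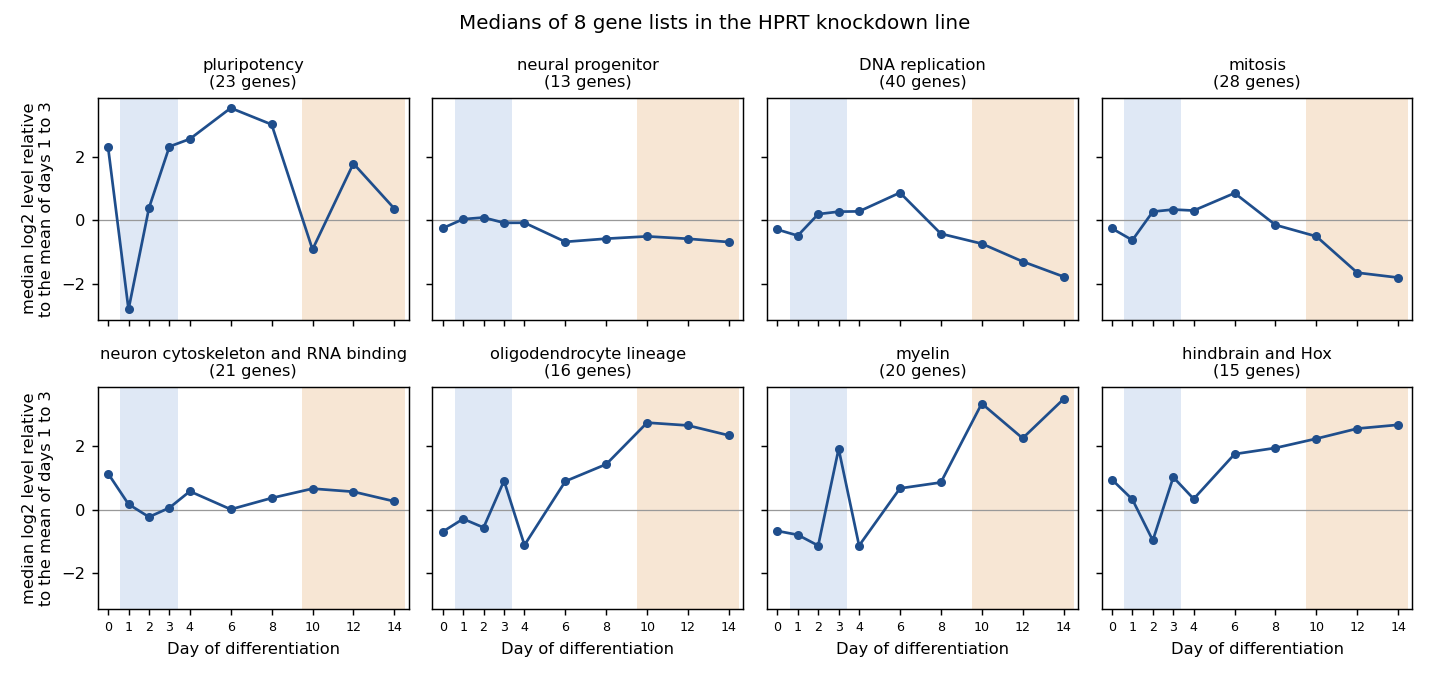
Median log2 level of 8 gene lists on the 10 days of the HPRT knockdown line, relative to each gene's mean of days 1, 2 and 3; blue and orange bands mark the early and late days, each point is the median of the tested genes of 1 library, and all panels share one vertical scale. Myelin and oligodendrocyte lists peak on day 3 and climb from day 6, replication and mitosis decline after day 6, and pluripotency swings between -2.79 on day 1 and 3.53 on day 6.

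The differences were built up unevenly in time. Levels on day 6, here and in the courses above, rest on a library that was left out of the study's own pathway analysis as an outlier; it enters neither the early nor the late mean. Genes called higher had covered a median of -0.58% of their late difference by day 4, 14.6% by day 6 and 48.1% by day 8; genes called lower had covered 17.5%, 28.3% and 63.9%. On day 0, before the early days, the medians were 16.1% and 43.2%, and 338 of the 766 genes called lower stood more than halfway to their late level. The step from day 8 to day 10 moved 1562 genes at least 2-fold, more than any other step after day 1, and the steps from day 10 to 12 and 12 to 14 moved 920 and 730. The late days were thus the quietest stretch of the course by this count, and day 0 to day 1 the busiest with 2048.

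Whether the course differed from that of the control line was tested on the ratio of the knockdown to the control library of the same day, late against early. The difference passed for 462 genes (3.48%), 143 higher and 319 lower in the knockdown line; 193 of these were also called within the knockdown line, 87 higher in both tests, 101 lower in both and 5 higher late with a lower ratio. Leaving out single days changed these counts strongly, to 315 higher and 276 lower without day 3 and to between 0 and 7 genes in limma without any other of the 6 days (without day 12, where 0 passed, 2747 genes had an unadjusted p under 0.05). Of the oligodendrocyte lineage list 4 of 16 genes were called, all higher: Sox10 (5.38 ± 0.97, adjusted p = 0.0476), Gpr17 (5.61, adjusted p = 0.0486), Lhfpl3 (3.12, adjusted p = 0.0281) and Olig2 (1.93, adjusted p = 0.0489). For Olig2 the ratio to control was 1.97, 2.85 and 3.06 on the early days and 5.05, 4.45 and 4.17 on the late days, while its difference within the knockdown line was 0.18. No myelin gene passed, with a median of 3.20 over 20 genes, and Mbp stood at 5.29 ± 1.69 (adjusted p = 0.123).

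Below the control's course were Nefl (-1.89, adjusted p = 0.0287), Grm4 (-2.71, adjusted p = 0.0358) and 5 of 26 synapse genes, against 319 of 13271 over all genes. The synapse genes included Camk2b (-2.73, adjusted p = 0.0489) and the neurexins Nrxn2 and Nrxn3. Of the fibroblast and feeder list 3 of 14 genes were lower in the same test, so such calls were not confined to neuronal genes. No replication or mitosis gene passed, with medians of -0.09 and -0.11 over 40 and 28 genes. For Rrm2 the difference between the lines was -0.28 ± 0.31 (SE) and for Plk1 -0.29 ± 0.30 (SE), beside changes of -2.31 and -1.67 within the knockdown line. Tyrosine hydroxylase stood at -2.04 ± 1.34 (Th, adjusted p = 0.369), a spread too wide to place it.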

How the data were processed

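RNA-Seq of 20 libraries (10 days, 2 lines) was deposited as 28 tables of 2 libraries each. Per the labels and the study's methods, reads were processed with CASAVA 1.8.2 on mm9 (NCBI37), and the authors normalised counts with DESeq in Avadis NGS. The deposited values are log2 normalised counts from which the authors subtracted the mean of the table's 2 libraries, so each table holds a difference and no count. Later minus earlier values of the 9 knockdown tables of consecutive days were added up to join days 0 to 14. The typical level of a gene was read from the rounding of its values. Genes present in all tables numbered 37561; 350 copies with several loci were left out, and a log2 count of at least 4 was required. Days are successive collections of one line, and a fault in 1 table shifts every later day.

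Late (days 10, 12, 14) and early days (1, 2, 3) were compared with limma 3.58.1 (R 4.3.3), two-sided, with Benjamini-Hochberg adjustment over all 13271 genes. The exact permutation test of 3 against 3 cannot go below 0.1 and was not used. The difference between the lines was fitted on the ratio within the table of a day, which pairs the lines by day. The 34 gene lists (635 of 638 entries matched) and the comparison were chosen with earlier results of these data known. Named genes were fixed genes, the 10 highest and 10 lowest called, non-overlapping genes with agreeing tables, and the 2 largest called members of each list; other list members are named in addition, having been picked after their values were seen. Alternatives were other minimum counts, median centring, robust moderation, other groupings of days, joins through control tables, and leaving out each day. Some members of the lists are counted but not reported here by name.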

Additional observations from a re-analysis of the deposited data

Results flagged for a closer look

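For 7 of the genes named by rule, the change from early to late days differed between the knockdown and the control line by limma on the ratio within each day. The knockdown line moved upward relative to control for Sox10 (5.38), C4b (4.63), Olig2 (1.93) and Fos (1.25). It moved downward relative to control for Slc6a11 (-2.85), Camk2b (-2.73) and Calb1 (-1.99). Adjusted p lay between 0.0163 for Slc6a11 and 0.0489 for Camk2b, Calb1 and Olig2. For Slc6a11 the ratio of knockdown to control was 3.00, 2.54 and 3.26 on days 1, 2 and 3 and 0.18, -0.27 and 0.35 on days 10, 12 and 14, so that the lines were close late and apart early. For Fos the ratio was above 2 on all 6 days, from 2.38, 2.19 and 2.55 early to 3.40, 3.49 and 3.99 late.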

How the results depend on the processing

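Within the knockdown line, counts of genes called higher (977) and lower (766) stayed within 1.5 times of these values under every other minimum, scaling, moderation and join tried, and with days 0 to 4 set against days 8 to 14; only a slope over all 10 days called fewer lower (465; 749 without day 6). Leaving out 1 day gave 4 to 1067 genes higher and 0 to 719 lower. For the difference between the lines (143 higher, 319 lower), the count higher was 385 at a minimum log2 count of 8 and 397 with days 0 to 4 against 8 to 14, and no minimum gave 25 higher and 67 lower; leaving out 1 day gave 0 to 315 higher and 0 to 276 lower. Lines paired by day were the main design; without this replicate block, which brings in the control table of days 3 and 4, 247 were higher and 430 lower. Of 510 values of 85 named genes with 1 day left out, 303 lost the call and 4 gained one. Of 726 under other alternatives, 120 lost and 24 gained one, and no call turned its direction. Many of these genes were named because they were called on the same libraries, so the kept direction is no independent support. List medians moved by more than their spread between days in 11 of 204 values with a day left out and in 10 of 131 others. No source used here gives the depth of each library, and low levels could not be bounded; 744 genes had tables that disagreed by more than 0.1, 153 of the called genes among them. Day 3 was kept as early although it stood apart and its label was not tested, and with 1 library a day the spread of cultures within a day is not measured.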
